A study of Homo sapiens with 16 samples.

Results

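The CXCL chemokine cluster of human chromosome 4 was followed through 16 ATAC-seq peak lists as a window of 450 kb, chromosome 4 from 74550000 to 75000000 in hg19. Its members were the 9 chemokine genes CXCL8, CXCL6, PF4V1, CXCL1, PF4, PPBP, CXCL5, CXCL3 and CXCL2, and every listed peak that overlapped the window by at least 1 bp was taken. Peaks of libraries of 1 sequencing layout that overlapped were merged into regions. The window held 60 of 153040 such regions in the paired-end lists and 31 of 103322 in the single-end lists. At its edges the window took in 1 paired-end region that ended at 75000285 and 1 single-end region that began at 74549997.

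The cells were IMR-90 human lung fibroblasts carrying ER:Ras, a Ras oncoprotein fused to an estrogen receptor domain that 4-hydroxytamoxifen (4-OHT) switches on. The senescent control (Sen) had a control siRNA and 100 nM 4-OHT for 6 days and was sequenced in 4 paired-end and 2 single-end libraries. Proliferating cells (Pro) carried the same fusion and the same control siRNA without 4-OHT and had 2 paired-end libraries. All knockdowns were made in cells given the same dose and days of 4-OHT, with 2 libraries each: siFOXF1/2 and a JUN-family knockdown in paired-end form, sip300/CBP and sip65 in single-end form. The JUN-family libraries are titled for cJUN and JUND, while their treatment label names JUNB as well. By label the Pro cells, too, are senescent fibroblasts, but their titles and the missing 4-OHT mark them as proliferating, and they were used as such. All groups share the fusion, and no library of cells without it was used here. Separate cultures are not stated for the replicates, so any p-value measures only the spread between these libraries.

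Chemokines are small secreted proteins that guide migrating cells. CXCL8 (interleukin 8), CXCL6, CXCL1, CXCL5, CXCL3, CXCL2 and the processed product of PPBP carry a glutamate-leucine-arginine motif, signal through CXCR2, for CXCL8 and CXCL6 also through CXCR1, and attract neutrophils. PF4 and PF4V1 lack that motif and are known as platelet chemokines. In senescent fibroblasts CXCL8 and CXCL1 are textbook members of the senescence-associated secretory phenotype, and NF-kB, of which p65 is a subunit, AP-1, which is formed by JUN and FOS proteins, and C/EBP factors are known regulators of CXCL8. FOXF1 and FOXF2 are forkhead transcription factors of mesenchymal cells, and p300 and CBP are acetyltransferases that act as coactivators. ATAC-seq cuts open chromatin with a transposase, so the lists report accessibility and not expression.

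The RefSeq promoter table held 8 of the 9 members in GRCh38.p14, all except PF4. The 250 bases before the start are shown for the 3 genes whose starts could be placed on the hg19 lists, and for CXCL3, whose promoter resembles those of CXCL1 and CXCL2. They run from the 5′ end to the start, in lower case, with each match to a searched motif in capitals.

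CXCL8: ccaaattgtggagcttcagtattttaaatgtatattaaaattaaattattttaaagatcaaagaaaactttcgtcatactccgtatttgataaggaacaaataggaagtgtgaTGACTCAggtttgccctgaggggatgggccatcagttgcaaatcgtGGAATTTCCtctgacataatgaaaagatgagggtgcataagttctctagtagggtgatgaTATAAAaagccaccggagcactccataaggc
CXCL1: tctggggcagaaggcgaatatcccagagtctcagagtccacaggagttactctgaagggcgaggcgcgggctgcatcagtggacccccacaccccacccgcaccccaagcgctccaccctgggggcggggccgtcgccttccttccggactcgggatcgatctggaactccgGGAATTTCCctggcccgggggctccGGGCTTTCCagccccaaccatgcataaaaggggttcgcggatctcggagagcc
CXCL3: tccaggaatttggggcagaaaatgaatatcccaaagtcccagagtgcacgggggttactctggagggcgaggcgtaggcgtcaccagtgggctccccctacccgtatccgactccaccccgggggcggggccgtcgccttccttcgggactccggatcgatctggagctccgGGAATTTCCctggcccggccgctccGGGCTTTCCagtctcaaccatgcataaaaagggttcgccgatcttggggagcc
CXCL2: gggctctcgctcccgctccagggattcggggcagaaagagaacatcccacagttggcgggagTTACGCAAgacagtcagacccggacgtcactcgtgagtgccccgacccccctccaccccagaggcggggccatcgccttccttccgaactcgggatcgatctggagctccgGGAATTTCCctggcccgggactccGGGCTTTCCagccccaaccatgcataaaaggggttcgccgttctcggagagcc

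On chromosome 4 of GRCh38.p14 these bases lie at 73740319 to 73740568 (CXCL8, plus strand), 73869143 to 73869392 (CXCL1, plus strand), 74038690 to 74038939 (CXCL3, minus strand) and 74099196 to 74099445 (CXCL2, minus strand). Motifs were searched on both strands as NF-kB GGNNTTTCC, AP-1 TGANTCA, C/EBP TTGCNNAA, forkhead TGTTTAC and TATA box TATAAA, and no matches of different motifs overlapped in these promoters. An NF-kB match stood in 6 of the 8 promoters, against 5.48% of all 35116 promoters in the table. CXCL1, CXCL3 and CXCL2 each held 2 of them, GGAATTTCC and GGGCTTTCC, and CXCL8, CXCL6 and CXCL5 held 1, GGAATTTCC. In CXCL8 that match covered bases 91 to 83 before the start. CXCL8 was also the 1 member with an AP-1 match, TGACTCA at bases 137 to 131 before the start (6.57% of all promoters held one). TATAAA stood in 3 of the 8 promoters (10.7% of all). It lay at bases 31 to 26 in CXCL8 and PPBP and at bases 221 to 216 in PF4V1. The C/EBP letters matched in CXCL2, as TTACGCAA on the shown strand, and in PPBP (9.05% of all). A missing match, such as that of C/EBP in CXCL8, says only that these exact letters were not found, and other forms of the site were not searched. The forkhead letters matched in 0 of the 8 promoters (2.98% of all), which says only that these letters are not in the 250 bases searched. Without gaps, CXCL1 and CXCL3 were identical at 162 of 250 bases, and CXCL6 and CXCL5 at 214 of 249. How the authors treated reads that map to more than 1 such copy is not given in the sources used here. These are reference sequences of another build, they were not placed on the hg19 peaks, and a match is a description.

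The paired-end lists held 60156 to 108298 peaks and the single-end lists 17880 to 71155. For each peak the whole-read pileup at its summit was recovered from the deposited fold and p-value and divided by the genome-wide background of its library, which was 1.74 to 3.08 reads per base in the paired-end libraries and 0.195 to 0.475 in the single-end libraries. This ratio is called pileup over background here. At the genome-wide background it had a detection floor of 4.58 to 6.31 in the paired-end and 14.7 to 25.7 in the single-end libraries. Where the read level around a peak is higher, that floor is higher too. A region missing from a list is therefore below a floor and not at 0. A higher value can come from more cells being open or from each cell being more open, which these bulk libraries cannot tell apart. Peaks were not assigned to genes outside the window, so the labelled cell type was not checked against markers.

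Senescent libraries listed about as many window peaks as siFOXF1/2 libraries, and more than Pro and JUN-family knockdown libraries. Pro replicates 1 and 2 listed 21 and 20 peaks, Sen replicates 1 to 4 listed 44, 46, 41 and 44, siFOXF1/2 replicates listed 41 and 42, and JUN-family knockdown replicates listed 20 and 22. Sen thus averaged 43.75 ± 2.06 peaks (SD, n = 4) against 20.5 ± 0.707 in Pro (n = 2), 2.13 times as many, with no overlap between the groups. Against Sen, the mean was 0.949 times as high with siFOXF1/2 (41.5 ± 0.707, n = 2, overlapping) and 0.48 times as high with the JUN-family knockdown (21 ± 1.41, n = 2, not overlapping). Peaks covered 8.77 and 9.50 kb of the window in Pro, 23.8, 24.9, 18.2 and 15.5 kb in Sen, 22.2 and 21.6 kb with siFOXF1/2, and 7.41 and 8.36 kb with the JUN-family knockdown. The two-sided exact permutation test gave p = 0.133 for Sen against Pro and for the JUN-family knockdown against Sen, on peak number and on covered length alike, and that is the smallest p that 2 against 4 libraries allow (0.333 after Benjamini-Hochberg adjustment over the 10 window tests). For siFOXF1/2 against Sen the exact p was 0.4 for peak number and 0.8 for covered length (adjusted 0.444 and 0.8). No window test could pass 0.05.

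Length of list moved with these numbers. Per 10000 listed peaks the window held 3.22 and 3.02 peaks in Pro, 4.33, 4.47, 4.15 and 4.33 in Sen, 3.79 and 4.101 with siFOXF1/2 and 3.19 and 3.66 with the JUN-family knockdown. The difference of Sen over Pro went from 23.25 peaks to 6 when lists were shortened to their 65281 strongest peaks, and that of the JUN-family knockdown from −22.75 to −3.5 at 60156 peaks. The direction was the same, at a smaller size.

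**Figure D1:**
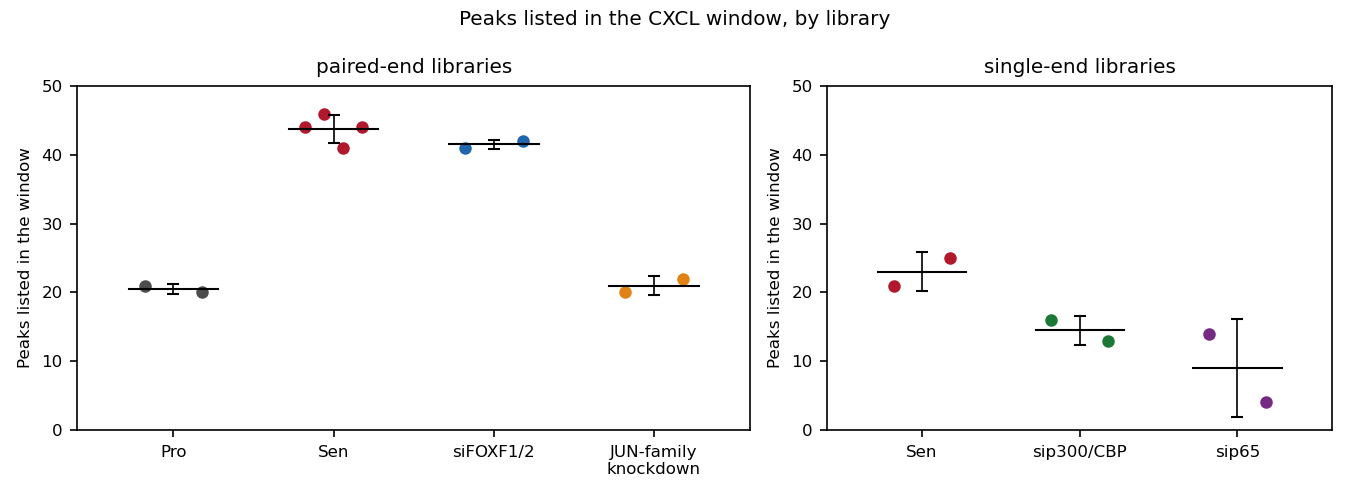
Number of peaks listed in the window (y axis) in each library (points) by group, for paired-end (left) and single-end (right) libraries; lines and bars give the mean and SD. The 4 Sen paired-end libraries sit between 41 and 46, while Pro and JUN-family knockdown libraries sit between 20 and 22.

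In the paired-end lists CXCL8 had a higher peak at its start in senescent than in proliferating libraries, and one that reached much farther into the gene. The region at its start, chromosome 4 from 74606116 to 74607543, was listed in all 10 paired-end libraries. Its pileup over background was 29.3 and 25.3 in Pro, 73.7, 82.0, 72.3 and 72.5 in Sen, 58.5 and 74.2 with siFOXF1/2, and 20.5 and 24.9 with the JUN-family knockdown. Every Sen value lay above both Pro values and both JUN-family values, while 1 siFOXF1/2 library lay within the Sen range and 1 below it. The group means were 27.3 ± 2.82 (SD, n = 2), 75.1 ± 4.64 (n = 4), 66.4 ± 11.1 (n = 2) and 22.7 ± 3.12 (n = 2). In order of level Sen stood above siFOXF1/2, from which it did not separate, and both stood above Pro and the JUN-family knockdown, whose values at 25.3 and 24.9 nearly met.

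The mean log2 difference at CXCL8 was 1.46 for Sen minus Pro, −0.19 for siFOXF1/2 minus Sen and −1.73 for the JUN-family knockdown minus Sen. Regions listed in both groups shifted as a whole in the JUN-family libraries, by a median of −0.79 over 43819 regions. Values were therefore also scaled so that regions listed in every paired-end library had the same median log2 value. On that scale the CXCL8 mean was 69.8 ± 2.06 in Sen, 51.9 ± 7.51 with siFOXF1/2 and 38.2 ± 0.489 with the JUN-family knockdown, differences of −0.43 and −0.87, and neither knockdown overlapped Sen. Pro, at 23.8 ± 2.66, then lay below the JUN-family knockdown, so the order of these 2 groups depends on the scale.

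The width of the CXCL8 peak differed with the groups as well. In Pro it was 280 and 304 bp wide and ended 217 and 236 bp after the start. In Sen replicates 1 to 3 it was 1238, 1388 and 1240 bp wide and ended 1151, 1320 and 1151 bp after the start, and Sen replicate 4 listed peaks of 803 and 203 bp, the farther of which ended at 1091 bp. With siFOXF1/2 it was 1015 and 1081 bp wide, and with the JUN-family knockdown 319 and 311 bp. So in the paired-end lists a promoter-proximal peak stood in every group, and its extension over the first kilobase of the gene in Sen and siFOXF1/2 only. The single-end Sen lists, with their higher detection floor, did not hold the extension. Their peaks were 171 and 214 bp wide and ended 165 and 188 bp after the start. Summits lay 54 to 143 bp after the start in all 10 paired-end lists. Farther into or past the gene, Sen replicates 1 and 2 also listed a region at 74609643 to 74610284 (27.6 and 43.2), and Sen replicate 2 one at 74607926 to 74608284 (38.4), and no other paired-end list held either.

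**Figure D2:**
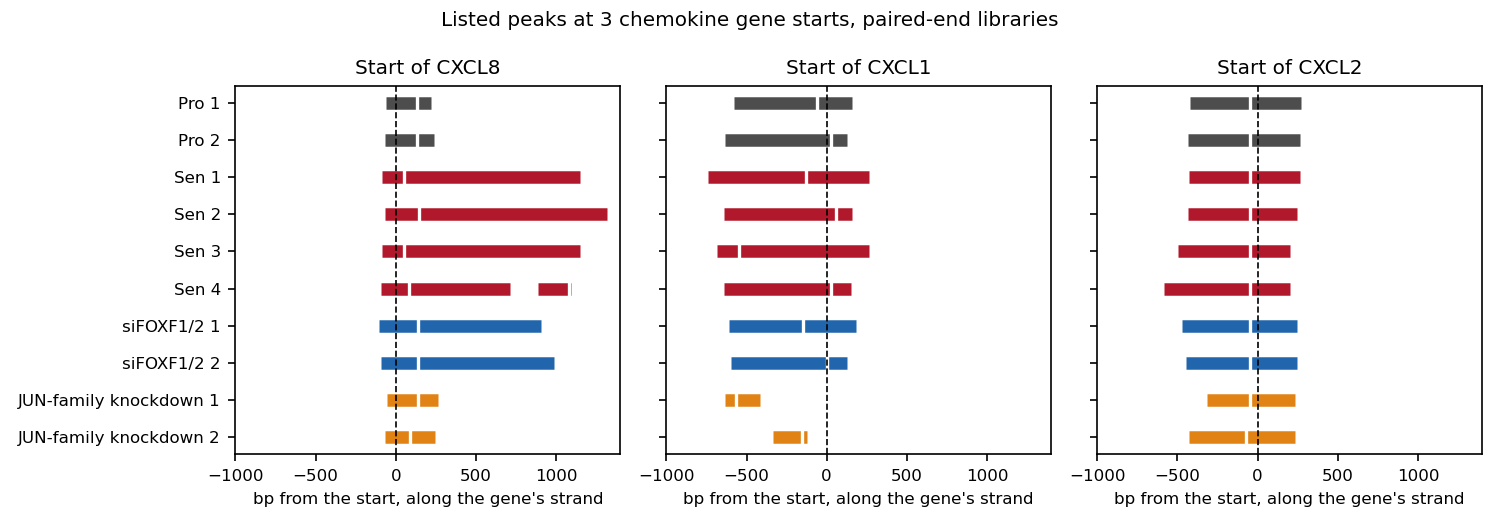
Listed peaks within 1000 bp of the starts of CXCL8, CXCL1 and CXCL2 (bars, x axis in bp from the start along the gene's strand, white marks at the summits) in each paired-end library (rows). The CXCL8 bars are 280 to 319 bp long in Pro and JUN-family knockdown libraries and reach 907 to 1320 bp into the gene in Sen and siFOXF1/2 libraries, while the CXCL2 bars are 685 to 791 bp long in Pro, Sen and siFOXF1/2 libraries and 548 and 661 bp with the JUN-family knockdown.

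The peak caller's local background at the CXCL8 start was higher in Sen than in Pro. This read level, taken from a stretch around the peak, was 1.37 and 1.58 times the genome-wide background in Pro. In Sen it was 11.2, 14.7, 8.19 and 5.58 times. It was 4.05 and 7.03 times with siFOXF1/2, and 1.44 and 1.84 times with the JUN-family knockdown. All Sen values exceeded all Pro values, and Sen replicates 1 and 2 exceeded replicates 3 and 4. Across the 15 window regions listed in all 10 libraries, the median local background was 1.66 and 1.94 times genome-wide in Pro and 2.82 to 4.84 times in Sen. Over all 37957 regions listed in all 10 libraries, those medians were 2.89 and 3.06 in Pro and 2.91 to 3.72 in Sen. The deposited fold of a peak is taken over this local background, and on that basis the order at CXCL8 turns around: pileup over local background was 21.4 and 16.0 in Pro and 6.56, 5.60, 8.83 and 13.0 in Sen, a log2 difference of −1.20. How far the stretch behind the local background reaches, and whether it takes in the peak's own reads, is not given in the sources used here. A higher local background is therefore not shown to be separate from the higher and wider peak.

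**Figure D3:**
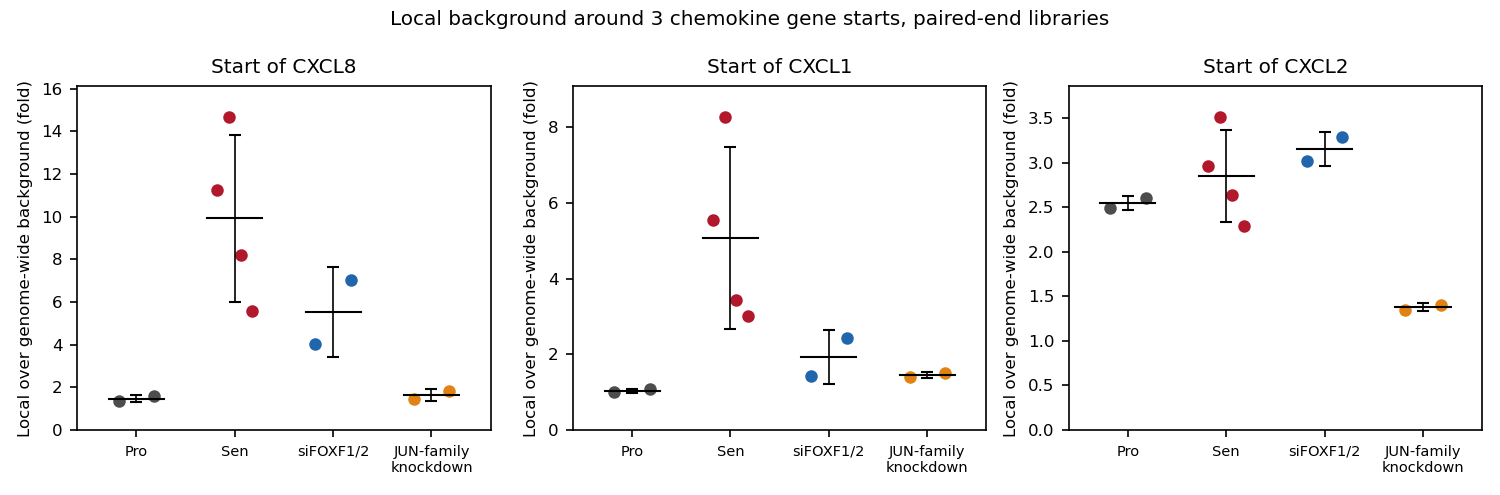
Local over genome-wide background (y axis, fold) at the starts of CXCL8, CXCL1 and CXCL2 in each paired-end library (points), with mean and SD by group. At CXCL8 the 4 Sen libraries lie between 5.58 and 14.7 and the Pro and JUN-family knockdown libraries between 1.37 and 1.84, and at CXCL2 the Pro libraries lie within the Sen range.

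CXCL1, the chemokine GRO-alpha, lies 129 kb beyond CXCL8 and had a lower peak that differed between the groups in the same order. The region at its start, 74734370 to 74735374, gave 10.9 and 10.6 in Pro, 27.9, 29.2, 25.2 and 23.8 in Sen, 16.8 and 22.3 with siFOXF1/2, and 8.44 and 7.96 with the JUN-family knockdown. The 4 Sen values exceeded all others, and the siFOXF1/2 values lay between Sen and Pro. Mean log2 differences were 1.30 for Sen minus Pro, −0.45 for siFOXF1/2 minus Sen and −1.69 for the JUN-family knockdown minus Sen, and on the scale of shared regions 1.39, −0.69 and −0.82. There too the JUN-family knockdown (14.0 ± 2.32) passed above Pro (9.40 ± 0.253) on the scale of shared regions. In the JUN-family lists, though, no peak spanned the start: replicate 1 had one from 632 to 419 bp before it and replicate 2 one from 338 to 125 bp before it, so the merged region joins different sites. In the other 8 lists the peak spanned the start, at widths of 724 to 1001 bp. Local background at CXCL1 was 1.00 and 1.07 times genome-wide in Pro and 3.00 to 8.26 times in Sen, and over it the log2 difference of Sen from Pro was −0.87.

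Just downstream of the CXCL1 start stood a region that, of the paired-end lists, the senescent control lists alone held. At 74736261 to 74737205, centred 1.62 kb after the start, Sen replicates 1 to 4 had 36.2, 45.2, 24.9 and 24.9, and neither Pro, siFOXF1/2 nor JUN-family libraries listed a peak. The same held at 74746001 to 74746396, centred 11.1 kb after the start, with 15.2, 21.2, 12.8 and 13.2 in Sen. These were the 2 regions of the 60 that all 4 Sen lists and no other list held. Neither difference was bounded at 2-fold. For all bounds given here, the floor of a list without the peak was taken at the highest local background among the libraries that held it. A lower local background in the list without the peak would lower that floor and raise the bound. Against that floor, Sen was at least 1.20 and 1.23 times Pro and at least 1.26 and 1.29 times siFOXF1/2. It was at least 1.25 and 1.28 times the JUN-family knockdown. On the scale of shared regions the JUN-family bounds were 0.75 and 0.80, which no longer exclude an equal level.

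A site 9.58 kb before the CXCL1 start moved the other way. At 74725205 to 74725852 the pileup over background was 95.3 and 107.7 in Pro, 58.6, 60.02, 50.7 and 45.6 in Sen, 16.8 and 30.1 with siFOXF1/2, and 35.4 and 46.7 with the JUN-family knockdown. Both Pro values exceeded all others, and both siFOXF1/2 values lay below all Sen values. Its log2 difference was −0.92 for Sen minus Pro and −1.25 for siFOXF1/2 minus Sen (−0.83 and −1.49 on the scale of shared regions). The JUN-family values overlapped Sen (−0.39) and lay above it on the scale of shared regions (0.47).

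CXCL2, also called MIP-2 alpha, had its highest start values in the proliferating libraries. The region at its start, 74964725 to 74965583, gave 69.4 and 69.8 in Pro, 49.3, 58.8, 45.8 and 51.0 in Sen, 65.4 and 68.5 with siFOXF1/2, and 23.4 and 24.4 with the JUN-family knockdown. Sen lay below Pro in every library, by 0.45 on the log2 scale of pileup over background, and by 0.36 when scaled on shared regions. Before that scaling, the median of Sen minus Pro over all 49449 regions listed in both groups was −0.18. With siFOXF1/2 the CXCL2 region lay above Sen in every library, by 0.39, close to the median of 0.28 over all 65257 regions listed in both groups, and by 0.15 when scaled on shared regions. With the JUN-family knockdown it lay below Sen in every library, with a log2 difference of −1.10, or −0.23 when scaled on shared regions (40.5 ± 3.88 against 47.5 ± 3.37). Peak widths were 685 to 791 bp in Pro, Sen and siFOXF1/2, and 548 and 661 bp with the JUN-family knockdown. The summit fell on the same base in 9 of the 10 lists, 48 bp before the start, and 74 bp before it in the tenth. Whether CXCL8 and CXCL2 differ in their response to senescence was not tested.

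**Figure D4:**
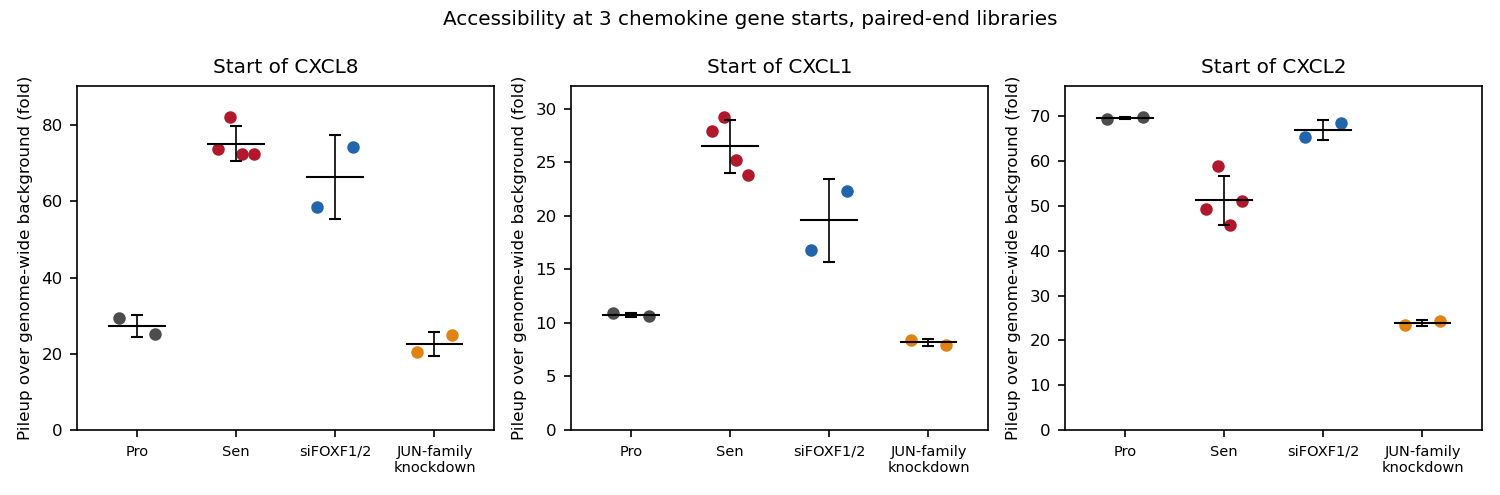
Pileup over genome-wide background (y axis, fold) at the starts of CXCL8, CXCL1 and CXCL2 in each paired-end library (points), with mean and SD by group. The Sen libraries lie above Pro at CXCL8 and CXCL1 and below Pro at CXCL2. The JUN-family knockdown libraries are the lowest in all 3 panels on this scale. Their CXCL1 values come from different peaks that end before the start.

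The genes without a placed start can be followed only by the interval that holds them. By gene order in RefSeq, CXCL6 and PF4V1 lie between CXCL8 and CXCL1, and PF4, PPBP, CXCL5 and CXCL3 between CXCL1 and CXCL2. Between the starts of CXCL8 and CXCL1, summits numbered 4 to 5 per library in Pro, 9 to 12 in Sen, 11 to 13 with siFOXF1/2 and 5 to 6 with the JUN-family knockdown. Between the starts of CXCL1 and CXCL2 they numbered 8 in both Pro libraries, 18 to 23 in Sen, 13 to 16 with siFOXF1/2 and 5 to 6 with the JUN-family knockdown. Before the CXCL8 start the numbers were 4 in both Pro libraries, 8 to 9 in Sen, 9 to 10 with siFOXF1/2 and 6 in both JUN-family libraries, and beyond the CXCL2 start they were 3 to 5 in all 10 libraries. The widest stretch without any listed region was the 41.7 kb just before the CXCL2 region, from 74923066 to 74964724.

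Of the 60 paired-end regions, 15 were listed in all 10 libraries and 9 in 1 library only. A region was called opened when every library of the later-named state and none of the reference listed it, and closed in the reverse case. From Pro to Sen 10 of the 30 regions held by all Sen lists opened, beside 26.1% genome-wide, and 0 of the 20 held by both Pro lists closed, beside 3.96%. Opened regions numbered 3 before CXCL8, 2 between CXCL8 and CXCL1, 5 between CXCL1 and CXCL2 and 0 beyond. The strongest of them lay at 74694676 to 74695149, 40.2 kb before CXCL1, with 28.9, 39.2, 20.9 and 25.7 in Sen. Of the 10 it alone was bounded, at 2.43-fold over Pro or more, beside 7.08% of regions genome-wide past a 2-fold bound. Next in strength were the site 1.62 kb after the CXCL1 start and one at 74587235 to 74587978, 18.6 kb before CXCL8, with 40.6, 64.4, 28.8 and 24.2 in Sen.

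Of 19 window regions held by all Pro and Sen lists, 6 had every Sen value above every Pro value (22.4% genome-wide) and 3 had every Sen value below (41% genome-wide). On the scale of shared regions the counts were 7 (27% genome-wide) and 3 (36.4% genome-wide). Besides CXCL8 and CXCL1, the higher regions were centred 50.3 and 10.8 kb before CXCL8 (log2 differences of 1.19 and 0.49), 101 kb downstream of CXCL2 (0.62) and 17.9 kb upstream of CXCL2 (0.77). Besides CXCL2 and the site 9.58 kb before CXCL1, the lower one was centred 22.8 kb after the CXCL1 start, with 37.9 and 40.4 in Pro and 14.8 to 22.04 in Sen (−1.04).

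**Figure D5:**
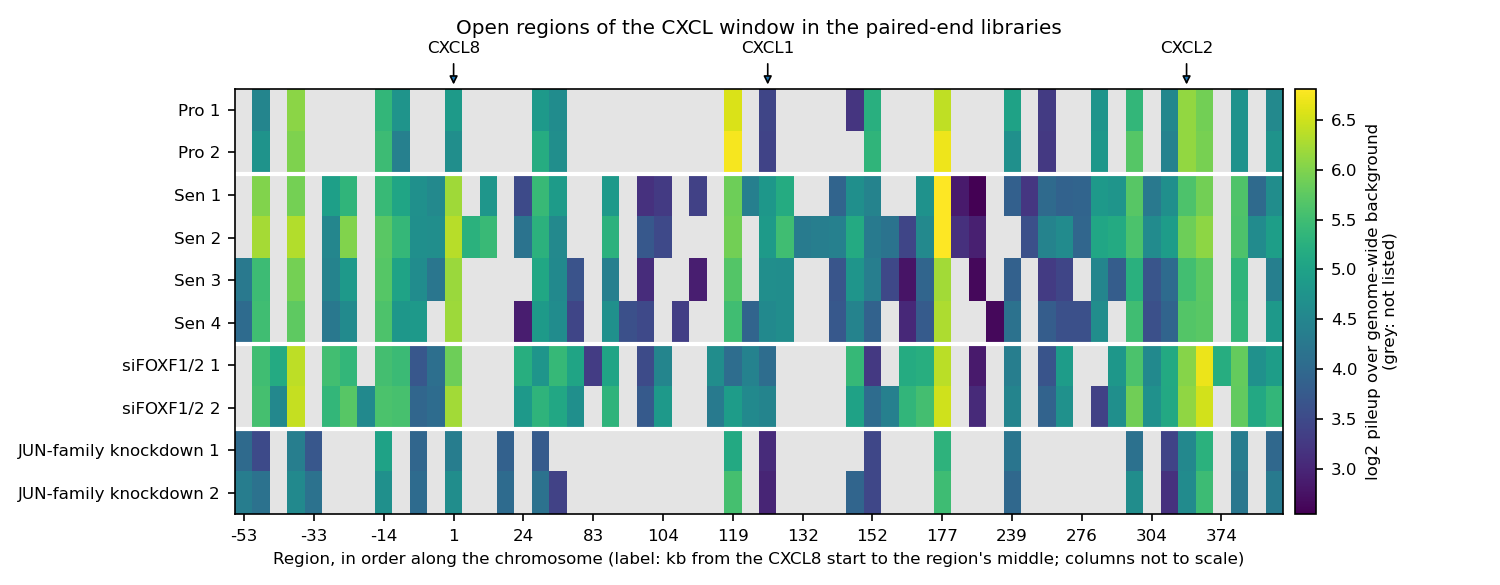
Log2 pileup over genome-wide background (colour, grey where not listed) in the 60 paired-end regions of the window (columns in chromosome order, labelled in kb from the CXCL8 start) and 10 libraries (rows). Pro and JUN-family knockdown rows hold 20 to 22 coloured cells with long grey stretches between CXCL8 and CXCL1, which are partly filled in the Sen and siFOXF1/2 rows.

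With siFOXF1/2 the window held about the same share of its senescent regions as the genome did. Of the 30 regions held by all Sen lists, 27 were held by both siFOXF1/2 lists (85.4% genome-wide) and 2 closed (8.1% genome-wide), namely the sites 1.62 and 11.1 kb after the CXCL1 start, neither of them past a 2-fold bound (1.98% genome-wide). Of the 39 regions held by both siFOXF1/2 lists 2 opened (9.7% genome-wide), and both were bounded at 2-fold (5.57% genome-wide). One stood at 74563931 to 74564250, 42.1 kb before CXCL8, with 35.6 and 23.4, at least 3.07 times Sen. The other stood at 74722159 to 74722619, 12.7 kb before CXCL1, with 24.9 and 19.7, at least 2.301 times Sen, or 1.81 times on the scale of shared regions. Among the 27 regions held in both groups, 10 had every siFOXF1/2 value above Sen (46.1% genome-wide) and 3 had every value below (8.77% genome-wide), or 5 (23.4%) and 8 (19.8%) on the scale of shared regions. The 3 lower ones were the CXCL1 start, the site 9.58 kb before it and a site 5.68 kb before CXCL8 (25.8, 25.6, 24.5 and 28.8 in Sen, 13.0 and 15.6 with siFOXF1/2). At 74883557 to 74884800, 80.8 kb downstream of CXCL2, Pro had 27.0 and 27.8, Sen had 22.6 to 33.6, siFOXF1/2 replicate 2 had 10.4 and replicate 1 listed no peak.

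With the JUN-family knockdown fewer of the senescent regions were listed. Of the 30 regions held by all Sen lists 12 closed (31.6% genome-wide), 3 before CXCL8, 2 between CXCL8 and CXCL1, 7 between CXCL1 and CXCL2 and 0 beyond. The strongest of them were the site 40.2 kb before CXCL1 (at least 2.48-fold lower), the site 80.8 kb downstream of CXCL2 (at least 2.27-fold lower) and one at 74595203 to 74595737, 10.8 kb before CXCL8, which had 27.0 and 21.2 in Pro and 28.1 to 42.0 in Sen. The first 2 were the only ones of the 12 past a 2-fold bound (9.68% genome-wide), and on the scale of shared regions 0 were (0.676% genome-wide). On that scale the bounds of the 12 ran from 0.638 to 1.56. Most lay below 1, so that an equal level could have gone unlisted. The site 10.8 kb before CXCL8 was among those, at 0.974. Of the 20 regions held by both JUN-family lists 2 opened (5.91% genome-wide). These were 74572642 to 74572870, 33.5 kb before CXCL8, with 13.0 and 17.9, and 74616897 to 74617168, 10.8 kb after it, with 14.6 and 16.4, of which the latter was bounded at 2.81-fold (2.2% genome-wide past 2-fold). On the scale of shared regions both were past 2-fold, at 2.86 and 5.12 (5.81% genome-wide). Of 16 regions held in both groups 15 had every JUN-family value below Sen (83.8% genome-wide) and 0 above (2.05% genome-wide). On the scale of shared regions 7 were lower (20.8% genome-wide) and 3 higher (30.5% genome-wide), the median log2 difference being −0.25 in the window and 0.08 over all 43819 regions.

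The 5 strongest regions of the window, by the lowest −log10 q over the 4 Sen lists, included 1 at a placed start, that of CXCL2. The strongest lay at 74782731 to 74783469, 48.0 kb after the CXCL1 start, with 84.4 and 103.6 in Pro, 112.3, 111.2, 74.2 and 78.3 in Sen, 82.6 and 90.8 with siFOXF1/2, and 39.6 and 44.8 with the JUN-family knockdown. Pro, Sen and siFOXF1/2 overlapped there. At 74974824 to 74976153, 10.5 kb upstream of CXCL2, siFOXF1/2 stood out with 103.3 and 91.9, against 59.7 and 61.2 in Pro, 52.6 to 67.6 in Sen and 38.6 and 44.3 with the JUN-family knockdown. At 74570148 to 74571100, 35.6 kb before CXCL8, the values were 67.2 and 63.7 in Pro, 53.8 to 79.6 in Sen, 83.8 and 86.2 with siFOXF1/2, and 20.8 and 23.9 with the JUN-family knockdown. At 74982564 to 74983244, 17.9 kb upstream of CXCL2, they were 26.4 and 26.3 in Pro, 40.2 to 49.6 in Sen, 55.9 and 55.0 with siFOXF1/2, and 20.1 and 18.9 with the JUN-family knockdown.

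The peak names in the paired-end lists come in 2 styles, one in Pro, Sen replicates 1 and 2 and siFOXF1/2, the other in Sen replicates 3 and 4 and the JUN-family libraries, so comparisons were also read within each style. Against Sen replicates 1 and 2 alone, of the 40 regions held by both Sen lists 20 opened from Pro (33.4% genome-wide) and 6 closed with siFOXF1/2 (11.1% genome-wide), and Sen exceeded Pro by 24.5 peaks. Against Sen replicates 3 and 4 alone, 14 of 34 regions closed with the JUN-family knockdown (34.8% genome-wide), with a difference of −21.5 peaks. What the style stands for is not given in the sources used here.

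Single-end libraries were shallower and showed fewer of these regions. Sen replicates 1 and 2 listed 21 and 25 window peaks, sip300/CBP replicates 16 and 13, and sip65 replicates 14 and 4, while the last library's whole list held 17880 peaks. The ratio to Sen was 0.630 for sip300/CBP (14.5 ± 2.12 against 23 ± 2.83) and 0.391 for sip65 (9 ± 7.07), without overlap. In the exact permutation test both gave p = 0.333 for peak number and for covered length (adjusted 0.417), the smallest p that 2 against 2 libraries allow. Per 10000 listed peaks the window held 3.85 and 3.70 in Sen, 2.25 and 2.79 with sip300/CBP, and 3.18 and 2.24 with sip65. At lists of equal length the sip65 difference shrank from −14 to −1 peaks.

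At the CXCL8 start all 6 single-end lists held a peak, and at the CXCL1 start none did within 1000 bp. CXCL8 pileup over background was 82.4 and 46.3 in Sen, 56.8 and 57.9 with sip300/CBP, and 38.3 and 46.2 with sip65. Whole-read pileups behind these values were only 9 to 22 reads, and the 2 Sen replicates lay farther apart than the group means. The sip300/CBP values lay between the 2 Sen values. Both sip65 values lay below both Sen values, the nearest pair being 46.2 and 46.3, with a log2 difference of −0.56, or −0.14 without Sen replicate 1. On the scale of shared regions CXCL8 was 68.8 and 57.3 in Sen, 46.5 and 65.1 with sip300/CBP, and 41.1 and 45.1 with sip65, a log2 difference of −0.54 for sip65. CXCL8 was the 1 of 3 window regions held in both groups with every sip65 value below Sen, against 8.84% genome-wide, or 19.8% on the scale of shared regions. Local background at CXCL8 was 7.95 and 4.39 times genome-wide in Sen, 2.36 and 2.58 times with sip300/CBP, and 2.79 and 2.36 times with sip65, both Sen values exceeding the other 4. Near CXCL2 a region centred 0.14 kb before the start, 74965028 to 74965241, gave 52.0 and 29.5 in Sen, 79.5 and 34.1 with sip300/CBP, and 54.2 and 41.0 with sip65, and the groups overlapped.

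Of the 19 regions held by both single-end Sen lists, 7 closed with sip300/CBP (17.4% genome-wide) and 6 with sip65 (29.6% genome-wide). Of the 11 held by both sip300/CBP lists 0 opened (13.1% genome-wide), and of the 4 held by both sip65 lists 0 opened (1.53% genome-wide). None of these closures reached a 2-fold bound, which 0.0484% of regions did genome-wide with sip300/CBP and 0% with sip65. For 1 of the 7 closures with sip300/CBP and 5 of the 6 with sip65 the bound was below 1, so that an equal level could have gone unlisted. On the scale of shared regions the bounds ran from 0.944 to 1.57 with sip300/CBP. With sip65 they ran from 0.867 to 1.16 on that scale, most of them above 1. By the lowest −log10 q in Sen, the strongest closed with sip300/CBP were 74872008 to 74872150, 92.9 kb downstream of CXCL2 (52.0 and 27.4 in Sen), 74642173 to 74642380, 36.1 kb after CXCL8 (43.4 and 33.7), and 74922647 to 74922801, 42.3 kb downstream of CXCL2 (43.4 and 25.3). With sip65 the 3 strongest were the site 92.9 kb downstream of CXCL2, 74904499 to 74904675, 60.4 kb downstream of CXCL2 (69.4 and 33.7), and the site 42.3 kb downstream of CXCL2. Both comparisons use the same 2 Sen libraries, so their closed regions are not independent.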

How the data were processed

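ATAC-seq of IMR-90 ER:Ras cells gave 16 peak lists, 1 per library, in hg19. The submitters' processing notes name MACS2 2.1.1, deepTools 3.1.1, SAMtools 1.9 and Bowtie2 2.3.4.1, with no settings. Per the file layout, each deposited list gives per peak a score, a fold enrichment over local background (a ratio), −log10 p-value and −log10 q-value columns, and a summit offset in bp. All −log10 q values were above 4. The deposited fold and −log10 p were solved together, under the Poisson formula of MACS2 with a pseudocount of 1, for each peak's whole-read pileup and local background, within a tolerance of 0.002 in −log10 p (in proportion above 10). A whole number was found for 100% of peaks, and more than 1 for 0 to 2.42% of peaks in a library. The 1st percentile of local background served as the genome-wide background. This recovery was tested on data simulated with the same formula, which cannot show whether the formula holds for these lists.

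Peaks on chromosomes 1 to 22 and X overlapping by at least 1 bp were merged within each layout, and a region's value was that of its highest peak. Window peak number and covered length were compared with two-sided exact permutation tests in Python 3.11.15 with scipy 1.17.1, adjusted by Benjamini-Hochberg over 10 tests. Region calls and pileups carry no test. Depth in reads is not given by peak lists, so the detection floor stands for it. Regions to name were those at the starts of CXCL8, CXCL1 and CXCL2, the 5 strongest in Sen, and the called ones, with the 3 strongest per comparison in full. Members, motif letters and lists were chosen with earlier results of these data known. The alternatives tried were equal list lengths, a stricter −log10 q limit of 5, a cover of 50% of the region, 500 bp summit windows, leaving out each library, pairing by replicate number, and Sen replicates by peak-name style. Added after seeing the data were counts per 10000 listed peaks, the 2-fold bound and the local background scale. CXCL6, PF4V1, PF4, PPBP, CXCL5 and CXCL3 were placed only by RefSeq gene order, since no hg19 annotation was used here.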

Additional observations from a re-analysis of the deposited data

Results flagged for a closer look

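At the CXCL8 start, Sen replicate 2 lay apart from the other Sen paired-end libraries, with a pileup over background of 82.0 against 72.3 to 73.7. Its gap to the nearest library exceeded Dixon's critical share of the range for 4 samples. Of 9 such groups of 4 values examined, this was the 1 set apart, and chance sets apart about 1 in 20. On the scale of shared regions another library lay apart, Sen replicate 1 with 66.7 against 70.5 to 71.0, its gap being 0.888 of the range against 0.854 for replicate 2 before that scaling.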

How the results depend on the processing

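Percentages here are genome-wide shares at the same setting. With lists of equal length, 4 of 21 regions opened from Pro to Sen (14.9%), 5 of 20 closed with the JUN-family knockdown (15.2%), and with sip65 1 of 3 closed (16.6%) and 2 of 3 opened (15.6%). Where peaks had to cover 50% of a region, 3 of 14 opened from Pro to Sen (34.5%), 1 of 14 closed (10.3%) and 5 of 34 opened (13.8%) with siFOXF1/2, and 7 of 14 closed with the JUN-family knockdown (46.6%). With Sen replicates 1 and 2 only, of 40 regions 20 opened from Pro to Sen (33.4%), 6 closed with siFOXF1/2 (11.1%) and 22 with the JUN-family knockdown (40.1%), and with Sen replicates 3 and 4 only, 4 of 39 opened with siFOXF1/2 (16%). Leaving out 1 library at a time gave 2 to 4 opened with siFOXF1/2 (4 without its replicate 2, 16.9%), 7 to 11 closed (11 without Sen replicate 1, 28.8%) and 0 to 3 opened (1 without sip300/CBP replicate 1, 17%, and 3 without replicate 2, 30.3%) with sip300/CBP, and 6 to 16 closed (11 without Sen replicate 1, 42.8%, and 16 without sip65 replicate 1, 65.4%) and 0 to 1 opened (without Sen replicate 2, 7.25%) with sip65. The covered length with siFOXF1/2 went from 1295 bp above Sen to −423 bp without Sen replicate 4 (range −423 to 2739 bp), and to −2479 bp against Sen replicates 1 and 2 only. The cause was not tested. In all, 85 of 104 region counts at other settings were within 1.5 times the reported count, and 96 of 99 differences in peak number or covered length kept their sign, which says nothing of their tests.

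Over the local background of each peak, log2 differences reversed to −1.20 (CXCL8) and −0.87 (CXCL1) for Sen minus Pro, 0.62 and 0.88 for siFOXF1/2 minus Sen, and 0.78 and 0.0028 for the JUN-family knockdown minus Sen, and at CXCL8 to 1.15 for sip300/CBP and 0.65 for sip65, because the local background is itself higher in Sen. Leaving out 1 single-end library reversed CXCL8 with sip300/CBP to 0.31 (without Sen replicate 1, range −0.52 to 0.31), CXCL2 with sip300/CBP to −0.00049 (without Sen replicate 2) and −0.20 (without sip300/CBP replicate 1, range −0.20 to 1.02), and CXCL2 with sip65 to −0.14 (without Sen replicate 2, range −0.14 to 0.68).

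Pairing by replicate number gave differences of 24.5 peaks for Sen minus Pro, −3.5 with siFOXF1/2 and −24 with the JUN-family knockdown, and the replicate block turned the covered length with siFOXF1/2 to −2479 bp. It changed no other direction. Deviations of same-numbered libraries correlated across regions at 0.083 (Sen and Pro), 0.105 (siFOXF1/2) and 0.020 (JUN-family knockdown), with 2 pairs each. For sip300/CBP and sip65, also with 2 pairs each, they correlated at 0.017 and −0.0014. So few pairs cannot tell whether same-numbered libraries share a culture or a run. Absence from a list is limited by the floor, which at the genome-wide background was 14.7 to 25.7 times that background in the single-end libraries.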

Other observations

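A region at 74795086 to 74795258, 60.1 kb after the CXCL1 start, was listed in both single-end Sen libraries (34.7 and 21.0 times background) and both sip300/CBP libraries (26.5 and 34.1), in neither sip65 library and in none of the 10 paired-end lists. Near the CXCL2 start the single-end peaks did not span the start in any of the 6 lists, while the paired-end peaks spanned it in all 10, and the summits lay 175 to 74 bp before the start in the single-end lists and 74 to 48 bp before it in the paired-end lists. The sip65 replicate 2 library listed 4 window peaks: those at the CXCL8 and CXCL2 starts, the site 9.56 kb before CXCL1, and the site 47.9 kb after the CXCL1 start.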
